A study of Mus musculus with 6 samples.

Results

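The Hox genes lie in 4 clusters, HoxA, HoxB, HoxC and HoxD, each on its own chromosome. To describe the distribution of 5-hydroxymethylcytosine (5hmC) over these clusters, all regions of a genome-wide 5hmC count table with their midpoint in 1 of 4 windows were taken. The windows were chr6:52050000-52260000 for HoxA (210 kb), chr11:96000000-96280000 for HoxB (280 kb), chr15:102700000-102920000 for HoxC (220 kb) and chr2:74450000-74660000 for HoxD (210 kb), in the mouse build mm9. They held 26 of the 192196 regions in the table. Of these, 10 lay in HoxA, 12 in HoxB, 2 in HoxC and 2 in HoxD. Regions were taken by position alone, though with earlier results of these data known. Below, a Hox region means a region with its midpoint in a window, whether or not it lay among the Hox genes. The 50 kb on each side of a window, together called the flanks, held 28 further regions and served for comparison.

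The 5hmC profiles came from mice without functional Tet1 in every cell (constitutive knockout, KO) and from wild-type (WT) mice, with 2 libraries of each genotype. Sample titles give brain as the material, whereas the text of the study describes astrocytes grown from the cortex and hippocampus of newborn pups. A DNA count table holds no expression, so neither could be checked against cell type markers, and the deleted exons of Tet1 could not be located in it. 5hmC was tagged chemically with a glucose that carries biotin, and the tagged DNA was purified and sequenced. Whether the libraries of a genotype came from separate animals or cultures is not stated, so p-values measure the spread between these samples, which may be technical.

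Tet1 is 1 of the enzymes that oxidise 5-methylcytosine to 5hmC, mostly at cytosines followed by guanine (CpG). Hox genes encode homeodomain transcription factors that give cells their position along the body axis, and their order on the chromosome follows the order in which they act along that axis. In forebrain-derived cells most Hox genes are known to be silent and held by Polycomb proteins, whose targets are often rich in unmethylated CpG. In HoxA, Hoxa13 is the Hox gene with the highest coordinate. HoxB runs from Hoxb13 to Hoxb1, HoxC from Hoxc13 to Hoxc4 and HoxD from Hoxd13 to Hoxd1. The clusters hold 11, 10, 9 and 9 Hox genes (39 in all), and 6 microRNA genes, among them Mir10a in HoxB, Mir10b in HoxD and Mir615 in HoxC. Below the lowest and above the highest Hox gene, the nearest genes were Skap2 and Evx1 for HoxA, and Ttll6 and Skap1 for HoxB. They were Calcoco1 and Smug1 for HoxC, and Evx2 and Mtx2 for HoxD. Gene names and their order were taken from the RefSeq annotation of GRCm38.p6, a later build than that of the regions. No region was placed in a gene, exon or intron for that reason, and whether a region near the edge of a window lay inside the run of Hox genes was not determined. Nor was it determined whether the neighbouring genes lay in a window, in a flank or beyond, so their names give directions only.

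The CpG content of Hox promoters was counted because 5hmC forms at CpG. RefSeq promoters of 300 bases (250 before to 50 after the start of transcription, GRCm38.p6) were at hand for 22 of the 39 Hox genes, 24 promoters in all. They held a median of 14.5 CpG (range 4 to 45), compared with a median of 7 in all 32851 promoters. Of the 24 Hox promoters, 20 lay above the median of all promoters and 8 lay above their upper quartile of 20 CpG. All 24 held at least 1 CpG, as did 94.6% of all promoters. The motif CG reads the same on both strands. By cluster, promoters were at hand for 9 of 11 genes in HoxA, 3 of 10 in HoxB, 1 of 9 in HoxC and 9 of 9 in HoxD. The promoter with the most CpG among those at hand is shown for each cluster on the strand of its gene, with CpG in capitals. For HoxC it was the only one. Those of Hoxa13 and Hoxd13, which act in the limb tips and the hindmost body, held 45 and 37 CpG. Those of Hoxb4 and Hoxc4 held 14 and 9.
Hoxa13 (chr6:52260831-52261130, minus strand): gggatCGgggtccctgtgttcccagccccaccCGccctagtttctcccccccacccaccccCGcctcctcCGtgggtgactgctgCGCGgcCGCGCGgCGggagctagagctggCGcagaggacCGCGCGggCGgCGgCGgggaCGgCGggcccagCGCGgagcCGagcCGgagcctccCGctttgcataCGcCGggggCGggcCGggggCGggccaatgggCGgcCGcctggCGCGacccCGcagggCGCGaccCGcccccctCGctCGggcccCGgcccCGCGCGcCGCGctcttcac
Hoxb4 (chr11:96318017-96318316, plus strand): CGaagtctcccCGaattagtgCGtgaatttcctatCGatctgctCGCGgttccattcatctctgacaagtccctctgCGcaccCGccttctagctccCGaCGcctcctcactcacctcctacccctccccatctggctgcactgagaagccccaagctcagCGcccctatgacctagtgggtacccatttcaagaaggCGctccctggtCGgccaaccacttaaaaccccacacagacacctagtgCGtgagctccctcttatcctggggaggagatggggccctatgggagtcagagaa
Hoxc4 (chr15:103034145-103034444, plus strand): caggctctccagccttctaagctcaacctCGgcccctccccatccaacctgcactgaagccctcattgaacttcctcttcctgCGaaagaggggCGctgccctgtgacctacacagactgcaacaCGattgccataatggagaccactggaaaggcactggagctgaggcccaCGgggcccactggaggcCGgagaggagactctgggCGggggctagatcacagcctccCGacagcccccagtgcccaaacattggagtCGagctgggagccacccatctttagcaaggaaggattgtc
Hoxd13 (chr2:74667975-74668274, plus strand): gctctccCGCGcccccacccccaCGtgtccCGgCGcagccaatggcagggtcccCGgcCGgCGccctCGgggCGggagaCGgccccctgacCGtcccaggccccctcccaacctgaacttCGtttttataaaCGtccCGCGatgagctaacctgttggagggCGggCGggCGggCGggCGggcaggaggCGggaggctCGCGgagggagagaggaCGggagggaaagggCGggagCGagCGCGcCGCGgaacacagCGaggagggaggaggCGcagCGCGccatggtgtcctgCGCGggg
These 4 sequences are in GRCm38.p6 and were not matched to any region of the table.

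The libraries held 16819455 to 19288900 counts over all regions, with a median of 39 to 55 per region. The 25 regions of highest mean took 11.5% of counts in KO sample 1 and 17.8% in WT sample 1, but 36.5% in KO sample 2 and 34.1% in WT sample 2. KO sample 2 also had 46 counts on chromosome Y, compared with 1765 to 5353 in the other libraries. None of the regions behind these values is in a Hox window, and their part in the comparisons of KO with WT was not tested. Values below are normalised read counts (CPM), that is, counts per 1000000 of the library size after scaling by trimmed mean (TMM). CPM are relative to each library, so a change of 5hmC shared by the whole genome would not be seen in them. A count of 3, taken as the floor, equalled 0.141 to 0.195 CPM.

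First, the level of 5hmC in each cluster was examined. Taken over the whole window, HoxA and HoxB carried 5hmC at a level common among autosomal windows, whereas HoxC and HoxD carried little. These are levels of windows, not of the Hox genes within them, since no region was placed among the genes. Between 70 and 210 kb from its low-coordinate edge the HoxB window held 0 regions. Between 52.5 and 157.5 kb the HoxA window held 2. In HoxA the KO libraries held 18.0 (sample 1) and 22.6 (sample 2) CPM per 100 kb and the WT libraries 22.2 and 20.2, a mean of 20.7 ± 2.12 (SD, n = 4). HoxB held 16.4 and 23.4 in the KO libraries and 17.2 and 19.7 in the WT libraries, a mean of 19.2 ± 3.16. These clusters overlapped: HoxA was above HoxB in 3 of 4 libraries, and the log2 ratio was 0.12 ± 0.18. HoxD held 1.21 and 1.86 CPM per 100 kb in the KO libraries, 1.42 and 1.80 in the WT libraries, a mean of 1.57 ± 0.311. HoxC was lowest, with 0.298 and 0.473 for KO, 0.559 and 0.397 for WT, a mean of 0.432 ± 0.111. The summed counts of HoxC were only 14, 16, 23 and 15 in the same order of libraries, so its level is the least precise. HoxA exceeded HoxD by 11.2-fold to 15.6-fold and HoxC by 39.8-fold to 60.3-fold across the libraries. HoxB exceeded HoxD by 10.9-fold to 13.6-fold. HoxD was above HoxC in 4 of 4 libraries. No test beyond these counts of libraries was made between clusters.

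The clusters were then set beside 12045 autosomal tiles of 200 kb. The median tile held 17.4 CPM per 100 kb, with quartiles of 3.22 and 44.8. HoxA and HoxB lay just above this median, since 54.1% and 52.1% of tiles were at or below their levels. For HoxD and HoxC the shares were 19.1% and 12.7%. In number of regions all clusters lay below the median tile, which had 6 regions per 100 kb. HoxA had 4.76, HoxB 4.29, HoxD 0.952 and HoxC 0.909. Among the tiles, 531 had no region. The Hox regions themselves were of common size, with a median width of 404 bp (180 to 1547) compared with 435 bp over all regions. Their median level was 2.25 CPM compared with 2.55.

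**Figure D1:**
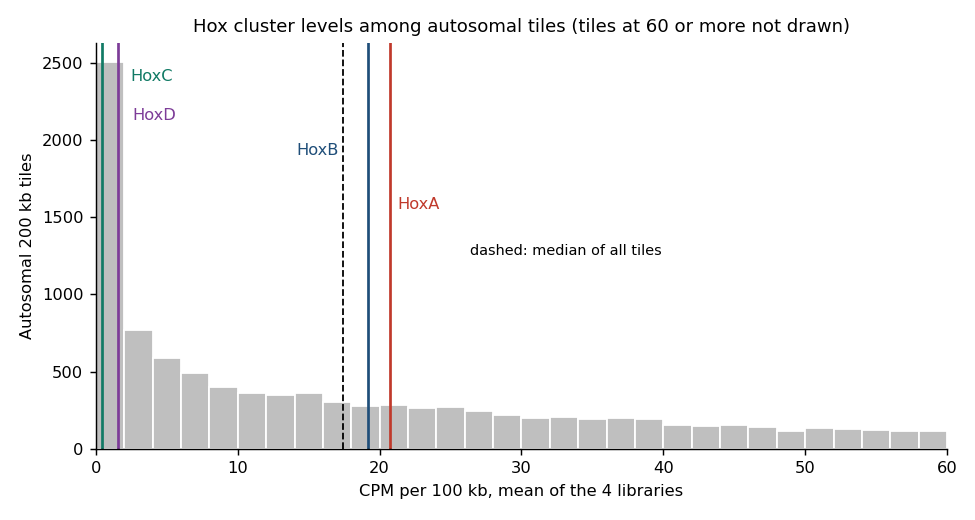
Number of autosomal 200 kb tiles (y axis) by 5hmC level in CPM per 100 kb (x axis, mean of the 4 libraries, steps of 2, tiles at 60 or more not drawn); solid lines mark the 4 Hox clusters and the dashed line the median tile. HoxC (0.432) and HoxD (1.57) fall in the lowest step, and HoxB (19.2) and HoxA (20.7) lie just above the median of 17.4.

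Next, each cluster was compared with its flanks. In all 4 libraries every cluster had less 5hmC per kb than its flanks, by a margin that ranged widely between clusters. HoxC was 35.8-fold below its flanks (27.3-fold to 47.0-fold across libraries). Its log2 ratios were -5.55 and -5.04 for KO, -4.77 and -5.28 for WT, a mean of -5.16 ± 0.34 (SD, n = 4). HoxA was 3.74-fold below (3.30 to 4.47), with log2 ratios of -2.16 and -1.96 for KO, -1.72 and -1.77 for WT. HoxB was 1.67-fold below (1.34 to 1.96), with log2 ratios of -0.97 and -0.72 for KO, -0.86 and -0.42 for WT. HoxD was 2.65-fold below, and here the libraries disagreed in size. Its log2 ratios were -2.40, -0.07, -2.00 and -1.16 in KO samples 1 and 2 and WT samples 1 and 2, a mean of -1.41 ± 1.03. In KO sample 2 the HoxD flanks held 30 counts, compared with 136, 107 and 69 in the others, so the cluster was only 1.05-fold below them. An exact sign-flip permutation test over the 4 libraries (two-sided) gave p = 0.125 for each cluster, the smallest p that 4 libraries can give. For HoxD the direction turned when the level was taken per kb covered by regions, with 5.33 CPM per covered kb in the cluster and 4.05 in the flanks (log2 ratio 0.51, exact p = 0.5). The size of the ratios also moved with the width of the flanks: with 25 and 100 kb on each side HoxC was at -4.08 and -6.08 and HoxB at -1.44 and -0.55.

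The flanks were not alike on both sides. All 13 regions of the HoxA flanks lay on the low-coordinate side, at 155 ± 16.8 CPM per 100 kb (SD, n = 4). The 50 kb on the high-coordinate side held no region, so in all 4 libraries the HoxA cluster was above that flank. HoxB had 3 regions on each side, at 33.2 ± 8.39 CPM per 100 kb on the low side and 30.9 ± 2.81 on the high side. HoxC had 2 regions on the low side (13.9 ± 2.24) and 4 on the high side (16.2 ± 1.08). HoxD had 2 on the low side (6.24 ± 2.97) and 1 on the high side (2.79 ± 1.34). In KO sample 2 the HoxD cluster, at 1.86 CPM per 100 kb, was above its high flank, at 1.56. Most of the difference between clusters and flanks lay in how much sequence was covered by regions. Regions covered 2.90% of the HoxA window and 8.93% of its flanks, and 0.226% of HoxC compared with 2.26%. For HoxB the shares were 2.50% and 3.79%, and for HoxD 0.295% and 1.11%. Per kb covered, HoxA and its flanks were closer, at 7.16 and 8.69 CPM, as were HoxB and its flanks, at 7.68 and 8.47. HoxC was lower than its flanks on this scale too, at 1.91 and 6.66.

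**Figure D2:**
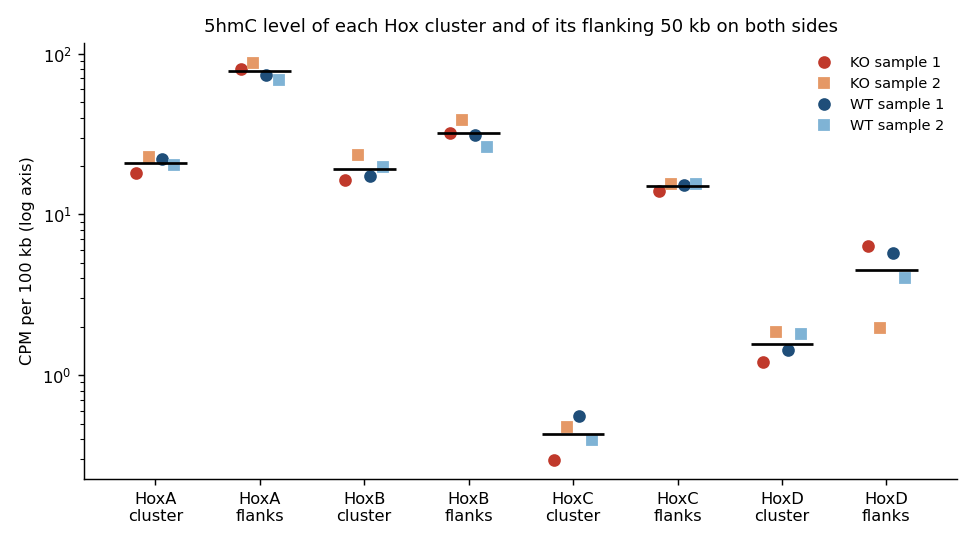
5hmC level in CPM per 100 kb (y axis, log scale) of each Hox cluster and of its flanks (50 kb on each side together, x axis) in the 4 libraries; each point is 1 library and the bar is their mean. Every cluster lies below its flanks in every library, and the points of the HoxD flanks are spread widest, from 1.95 to 6.38.

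To examine where within the clusters the regions lay, each window was divided into bins of 10 kb. No region fell in 75 of 92 bins, made up of 14 of 21 in HoxA, 22 of 28 in HoxB, 20 of 22 in HoxC and 19 of 21 in HoxD. The absence of a region means that the authors' table lists none there, not that no read fell there. In HoxA, 9 of 10 regions lay in the 105 kb of lower coordinates, on the side of Skap2, and 1 lay in the 105 kb on the side of Hoxa13. The lower part held 36.1 and 45.7 CPM in KO and 45.0 and 38.7 in WT. The upper part held 1.73 and 1.69 in KO and 1.66 and 3.66 in WT. In HoxB the weight was at the other end of the coordinates but again away from the group 13 gene. There 3 of 12 regions lay in the 140 kb on the side of Hoxb13, with 6.95 to 11.6 CPM, and 9 lay in the 140 kb on the side of Hoxb1, with 38.8 to 53.9 CPM. In HoxC both regions lay on the side of Hoxc4, and in HoxD both lay on the side of Hoxd1. In all 4 clusters, therefore, the part away from the group 13 gene held more regions than the part toward it. The list of regions is shared by the 4 libraries, so they do not repeat this observation. In HoxA and HoxB the part away from the group 13 gene also held more counts in 4 of 4 libraries. In HoxC and HoxD the part toward that gene held no listed region, so its counts could not have been higher in any library. The pattern is a description of 26 regions, 22 of them in HoxA and HoxB.

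Long stretches without a region ran through each cluster. In HoxB the longest was chr11:96012712-96238996, 226 kb or 80.8% of the window. In HoxC it was chr15:102670593-102862062, of which 162 kb lay inside the window (73.7%), followed after 1 region by 54.0 kb more. In HoxA it was chr6:52111313-52244696, 133 kb or 63.5% of the window. In HoxD it was chr2:74435810-74564665, with 115 kb inside the window (54.6%), followed after 1 region by 68.6 kb. Such stretches were uncommon by number among the 189476 gaps between autosomal regions, whose median was 4050 bp. Only 0.344% of gaps were as long as that of HoxB, 0.514% as that of HoxC, 0.987% as that of HoxA and 1.05% as that of HoxD. By length they were less rare, since gaps at least as long as these made up 10.03%, 12.9%, 19.1% and 19.8% of all autosomal sequence between regions, in the same order.

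**Figure D3:**
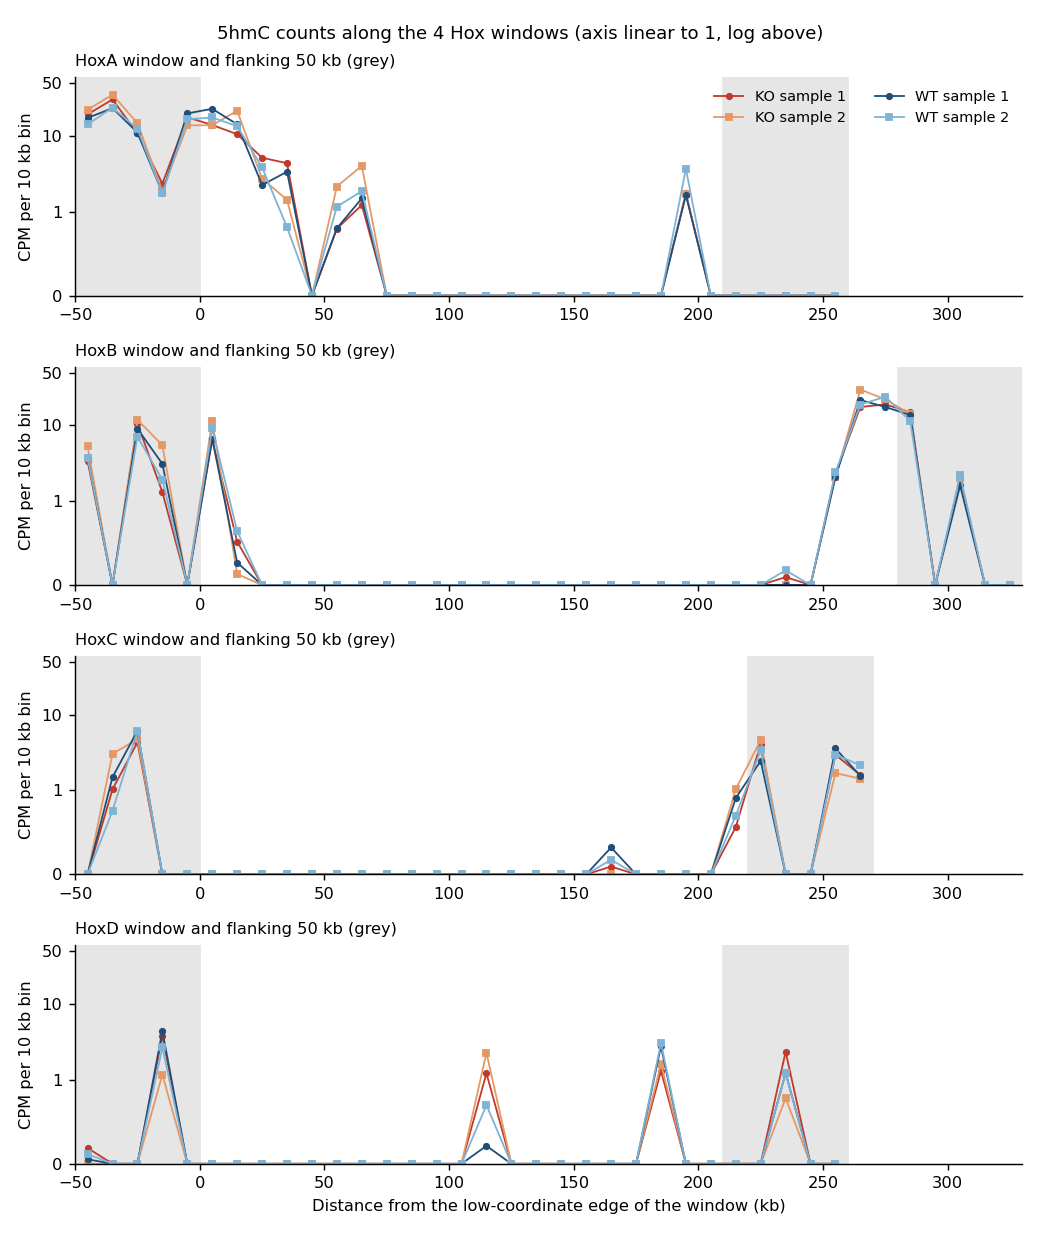
CPM in 10 kb bins (y axis, linear up to 1 and logarithmic above) against distance from the low-coordinate edge of each Hox window (x axis, kb) in the 4 libraries, with the flanks in grey. The lines lie at 0 over most of each window: in HoxA the counts sit near the low edge (Skap2 side), in HoxB near both edges, and HoxC and HoxD hold 2 regions each.

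The strongest region of the 4 windows was chr11:96274262-96275808, near the high-coordinate edge of the HoxB window. It was the widest (1547 bp) and held 404 and 339 counts in KO and 328 and 411 in WT, which is 18.9 and 22.0 CPM compared with 17.5 and 23.9. The genotypes overlapped, and the region took 38.7% ± 4.46 (SD, n = 4) of the counts of HoxB. It lay in a group of 8 regions within the last 30 kb of the window. Whether this group lay inside the run of Hox genes was not determined. The next in that group was chr11:96266196-96267296, with 5.39 and 9.36 CPM in KO and 7.53 and 5.87 in WT. It was followed by chr11:96262088-96262547, with 4.55 and 5.59 in KO and 5.45 and 5.23 in WT. The latter varied least among the libraries of these 3.

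In HoxA the highest levels were at the edge toward Skap2. The widest HoxA region, chr6:52051848-52053004 (1157 bp), held 10.2 and 8.32 CPM in KO and 15.7 and 12.0 in WT. Both KO libraries were below both WT libraries. It was nearly equalled by chr6:52067885-52068992, with 7.64 and 16.3 in KO and 12.4 and 9.77 in WT, where the KO libraries enclosed the WT libraries. The third, chr6:52056309-52057058, had 3.75 and 5.53 in KO and 7.16 and 5.53 in WT. Outside the naming rule, chosen after the values were seen, chr6:52080237-52080511 held 51 and 29 counts in sample 1 of KO and WT, but 4 and 2 in sample 2. The only region on the Hoxa13 side, chr6:52244697-52244987, likewise named after its values were seen, held 37 and 26 counts in KO and 31 and 63 in WT.

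HoxC had a weak pair of regions. One, chr15:102916290-102916540, held 12 and 16 counts in KO and 17 and 12 in WT. The other, chr15:102862063-102862309, held 2 and 0 in KO and 6 and 3 in WT, at or below the floor of 3 counts in 3 libraries, and was not tested. The HoxD pair moved in opposite ways. At chr2:74564666-74564969 the counts were 26 and 35 for KO but 4 and 12 for WT (1.22 and 2.28 CPM compared with 0.214 and 0.698), so both KO libraries were above both WT libraries. At chr2:74633571-74633885 they were 28 and 25 for KO but 52 and 53 for WT (1.31 and 1.63 CPM compared with 2.78 and 3.08), so both KO libraries were below. The sums of the pair therefore overlapped, with 54 and 60 counts in KO and 56 and 65 in WT.

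Finally, KO was compared with WT at each region, to examine whether loss of Tet1 altered 5hmC in the clusters relative to the rest of each library. No Hox region passed the test. Of the 26 regions, 23 had enough counts to be tested, and 0 passed at adjusted p under 0.05 in the quasi-likelihood test of edgeR with Benjamini-Hochberg adjustment over all 176957 tested regions. The share in the whole table was 0% as well. At an unadjusted p under 0.05, 1 Hox region was higher in KO and 0 were lower, compared with 1.54% and 1.27% of all tested regions. DESeq2 likewise gave 0 Hox regions at adjusted p under 0.05 and 1 before adjustment. The count of 1 was 8 of 23 without KO sample 1 and 6 of 23 without KO sample 2, where 23.4% and 11.2% of all tested regions had such a p. It was 2 without WT sample 2 (0.575% of all) and 0 with a minimum mean count of 20 (2.78%). Both KO libraries lay above both WT libraries at 1 of the 23 regions, compared with 15.3% of all tested regions, and below at 2, compared with 15.6%. At the other 20 the genotypes overlapped. The log2 fold change was above 0 at 13 regions and below 0 at 10, with a median of 0.11 compared with 0.02 over all tested regions.

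The region with an unadjusted p under 0.05 was chr2:74564666-74564969 in HoxD, with a log2 fold change of 1.93 ± 0.86 (SE). The lowest p in the other direction were those of chr6:52051848-52053004 in HoxA, at -0.58 ± 0.30, and of chr2:74633571-74633885 in HoxD, at -0.998 ± 0.54. After them came chr6:52056309-52057058 in HoxA, at -0.46 ± 0.38, a value that was -0.19 without KO sample 1 and -0.25 without WT sample 1. With a positive fold change, the next were in HoxB. There chr11:96262814-96263289 had 1.16 ± 0.70, with 1.03 and 5.53 CPM in KO and 0.855 and 2.04 in WT, a value set mainly by KO sample 2. For chr11:96268760-96269833 it was 0.43 ± 0.39, and 0.13 without KO sample 2. The strongest region of HoxB was at -0.02 ± 0.28. The Benjamini-Hochberg adjusted p of edgeR was 1.00 for each tested Hox region. Without KO sample 1 the count at adjusted p under 0.05 was 2, namely chr11:96262814-96263289 and chr2:74564666-74564969, but in that fit 13450 regions of the whole table passed, and KO was represented by 1 library.

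**Figure D4:**
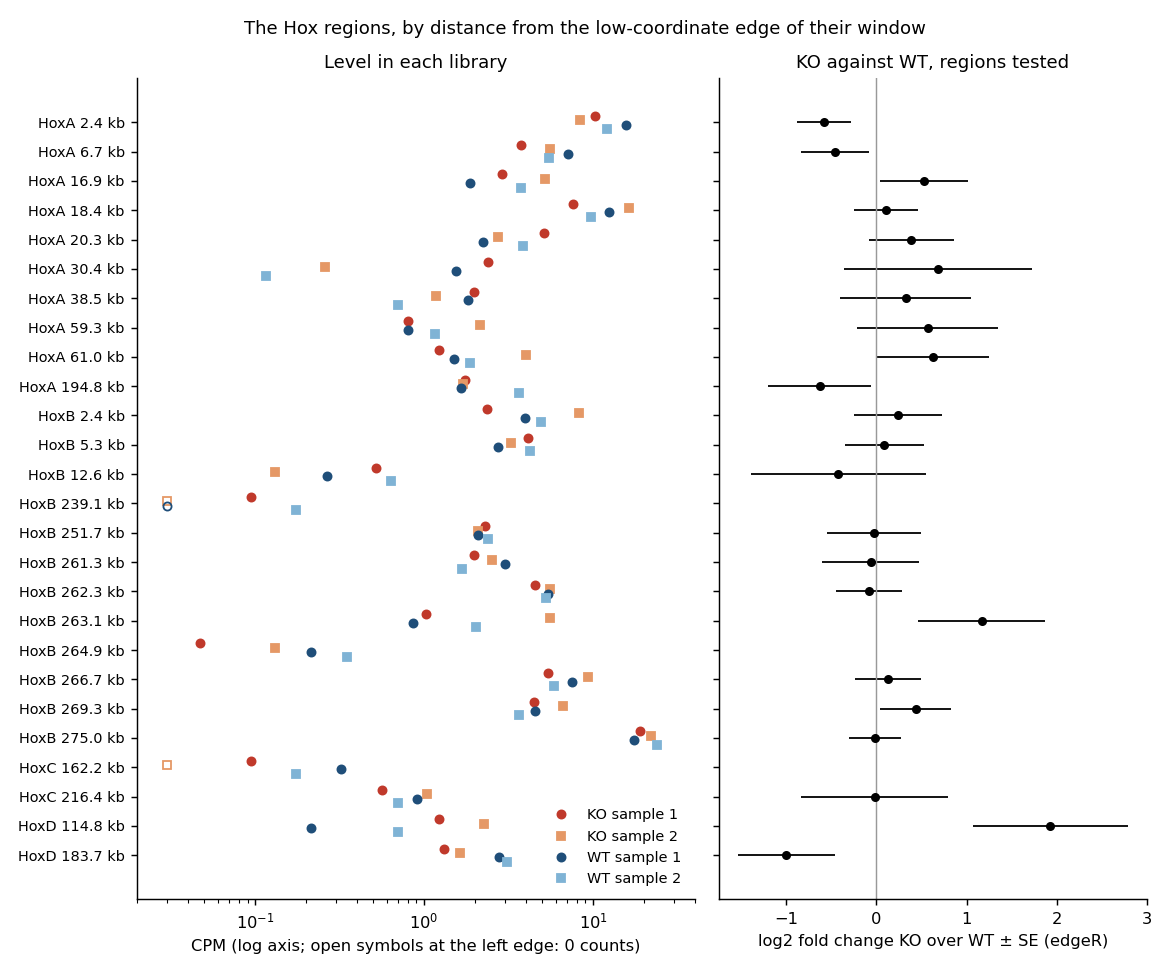
Left, CPM (x axis, log scale) of the 26 Hox regions in each library, ordered by cluster and by distance from the low-coordinate edge of the window (y axis, kb), with open symbols for 0 counts; right, the edgeR log2 fold change of KO over WT with its SE (x axis) for the 23 regions tested. The genotypes are mixed at 20 of these, and at the other 3 the KO libraries are both above (1 HoxD region) or both below (1 HoxD region and the HoxA region at 2.4 kb) the WT libraries.

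Next, the counts summed over each cluster were compared. HoxA held 806 and 729 counts in KO and 874 and 729 in WT, with a log2 fold change of -0.07 ± 0.20 (SE). HoxB held 977 and 1008 in KO and 901 and 948 in WT, with 0.11 ± 0.22. HoxC was at -0.32 ± 0.69 and HoxD at -0.08 ± 0.53. The sign of 3 of these depended on 1 library. HoxA turned to 0.089 without KO sample 1 and to 0.0060 without WT sample 1, and HoxB turned to -0.17 without KO sample 2. HoxD turned to 0.21 without KO sample 1 and to 0.10 without WT sample 2. HoxC stayed below 0 but moved to -0.018 without KO sample 1, -0.049 without WT sample 1, -0.68 without KO sample 2 and -0.54 without WT sample 2. Flanks were at 0.24 ± 0.15 for HoxA, 0.30 ± 0.23 for HoxB, -0.05 ± 0.29 for HoxC and -0.22 ± 0.65 for HoxD. Those of HoxC turned to 0.021 without KO sample 1, and those of HoxD to 0.39 without KO sample 2 and to 0.059 without WT sample 1. The adjusted p of edgeR was 0.999 for each of these 8 sums (Benjamini-Hochberg over 11152 sums, the rest being tiles of 200 kb). Over the 11152 sums the share past an adjusted p of 0.05 was 0%, and 0.888% were below 0.05 before adjustment. The libraries of the 4 clusters overlapped between genotypes, and 2 against 2 libraries cannot give an exact permutation p below 0.333. In the flanks of HoxA and HoxB both KO libraries were above both WT libraries. How many of the 11152 sums had such an order was not counted, so whether this is unusual cannot be told. KO minus WT, the log2 ratio of cluster to flanks differed by -0.32 for HoxA (exact permutation p = 0.333), -0.21 for HoxB (0.667), -0.27 for HoxC (0.667) and 0.34 for HoxD (1). The value for HoxD turned to -0.82 without KO sample 2 and to -0.080 without WT sample 1. These tests do not show that the genotypes were alike, and the SE of HoxC and HoxD were the widest of the 4 clusters.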

How the data were processed

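5hmC was profiled in 4 libraries (2 KO, 2 WT), grouped by the titles in the labels. The 2 input libraries were not analysed here. The authors deposited raw read counts for 1 shared list of regions. Bowtie2 2.2.6 and mm9 are named in the submitters' processing notes. How regions were defined, how reads were counted and whether duplicates were removed are not given in the sources used here, and such choices decide where a region is listed. Low counts were removed with filterByExpr (minimum count 10, minimum total 15), which left 176957 regions. The genotypes were compared with glmQLFTest, the quasi-likelihood test of edgeR (version 4.0.16, R 4.3.3), after TMM scaling, with Benjamini-Hochberg adjustment and 2 residual degrees of freedom. Summed counts were tested beside tiles of 200 kb with the library sizes of the region table. The code was tested on simulated data. Same-numbered libraries are not stated to be pairs. Named regions were the 3 of highest mean CPM and the widest in each cluster, and the 3 of lowest p in each direction. Members and lists were chosen with earlier results of these data known. Alternatives were DESeq2 1.42.0, total counts, other filters, a threshold of 0.01, the sample number as a block, other flanks and tiles, membership by overlap, level per covered kb, and leaving out each library. RefSeq tables of GRCm38.p6 gave gene order and promoters. Matplotlib 3.10.9 drew the figures.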

Additional observations from a re-analysis of the deposited data

How the results depend on the processing

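The comparison of cluster with flanks kept its direction for HoxA, HoxB and HoxC under every alternative run. All of these took the flanks of both sides together. With flanks of 25 and 100 kb the log2 ratio was -1.59 and -1.27 for HoxA, -1.44 and -0.55 for HoxB, -4.08 and -6.08 for HoxC and -2.38 and -0.91 for HoxD. Per kb covered, HoxD turned to 0.51. Without each library in turn, the ratio ran from -1.96 to -1.82 for HoxA, -0.85 to -0.67 for HoxB, -5.29 to -5.03 for HoxC and -1.85 to -1.08 for HoxD. Its difference, KO minus WT, ran from -0.42 to -0.22, -0.43 to 0.0084, -0.53 to -0.01 and -0.82 to 1.51. The tests without 1 library left 1 residual degree of freedom, with the lone library of a genotype assumed to vary like the other genotype. The summed log2 fold change of KO over WT then ran from -0.24 to 0.089 in HoxA, -0.17 to 0.34 in HoxB, -0.68 to -0.02 in HoxC and -0.42 to 0.21 in HoxD, and in the flanks from 0.18 to 0.31, 0.16 to 0.43, -0.13 to 0.021 and -1.32 to 0.39. The count of Hox regions at adjusted p under 0.05 ran from 0 to 2, and that at unadjusted p under 0.05 from 1 to 8 (8 without KO sample 1, 6 without KO sample 2, 2 without WT sample 2), while the share of all tested regions at unadjusted p under 0.05 was 23.4%, 11.2% and 0.575% in these fits. In the whole table the calls at adjusted p under 0.05 were 13450 without KO sample 1, 1944 without KO sample 2, 9 without WT sample 1 and 7 without WT sample 2, and the cause was not tested. With a minimum mean count of 20, which left 20 Hox regions, 0 had an unadjusted p under 0.05.

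Same-numbered libraries correlated at 0.162 in their deviations from the group mean, and with only 2 pairs the numbers were not taken to pair the samples. With the replicate block, 0 Hox regions passed, 1 had an unadjusted p under 0.05, and the log2 fold changes of the sums were -0.07, 0.09, -0.33 and -0.10 for HoxA to HoxD. The block raised the calls in the whole table from 0 to 79; DESeq2 gave 6 and no low-count filter 2. Over all settings of the 11 named regions tested, 11 of 97 values changed sign. One was chr11:96274262-96275808 at 0.010 with total counts. The others came from leaving out a library, with ranges of -0.23 to 0.071 for chr11:96262088-96262547, -0.48 to 1.95 for chr11:96262814-96263289, -0.32 to 0.49 for chr11:96266196-96267296, -0.22 to 0.23 for chr11:96274262-96275808, -0.51 to 0.37 for chr15:102916290-102916540 and -0.54 to 0.56 for chr6:52067885-52068992. The named regions that kept their sign ran from 0.13 to 0.70 for chr11:96268760-96269833, -0.76 to -0.19 for chr6:52056309-52057058, -0.76 to -0.37 for chr6:52051848-52053004, 1.32 to 2.99 for chr2:74564666-74564969 and -1.15 to -0.84 for chr2:74633571-74633885. Without KO sample 1, chr11:96262814-96263289 (log2 fold change 1.95, adjusted p = 0.00208) and chr2:74564666-74564969 (2.32, adjusted p = 0.0492) passed in edgeR with Benjamini-Hochberg adjustment. Depth limits HoxC most, where 14 to 23 counts per library carry the whole cluster.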

Other observations

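Outside the clusters and chosen after its values were seen, a region of the HoxA flank toward Skap2, chr6:52016851-52018035, held 227 and 318 counts in KO and 160 and 143 in WT. Both KO libraries were above both WT libraries, with a log2 fold change of 0.89 ± 0.34 (SE, edgeR, Benjamini-Hochberg adjusted p = 1.00). Of the 25 flank regions tested, both KO libraries lay above both WT libraries at 7 and below at 3, compared with 15.3% and 15.6% of all tested regions. In edgeR 0 passed at adjusted p under 0.05, and 1 was higher in KO at an unadjusted p under 0.05, compared with 1.54% of all tested regions.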
